A study of Mus musculus with 16 samples.

Results

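Peritoneal macrophages of mice deficient in Ifnar1, which encodes one subunit of the receptor for IFNα and IFNβ, were compared with and without IFNα in the title of the array. The arrays were chosen by title: 4 of the 16 arrays of the series, 2 from IFNα-treated KO mice and 2 from KO mice whose titles name no IFNα. All KO mice were males aged 6 weeks with the genetic background B6.129S2-Ifnar1tm1Agt/Mmjax, so the Ifnar1 deletion is shared by both groups. Treated mice had received 10000 U of IFNα under the skin and were killed at 2 h. The preparation text of the pair titled without IFNα names the same injection and the same time, against the titles. If that text is right, both groups were treated. Macrophages positive for ICAM2 and F4/80 were sorted from the peritoneal cavity, and RNA was hybridised to Affymetrix Mouse Gene 1.0 ST arrays. For comparison, B10.Q/J males aged 7 weeks, a strain with a natural Tyk2 mutation, gave 2 macrophage arrays at 2 h after 10000 U of IFNα, 2 at 5 h, and a vehicle pair made of 1 array at 2 h and 1 at 5 h. Their source is labelled peritoneal cavity, but 5 of these 6 titles hold the letters Sp, as those of the spleen T cell arrays do, and 1 holds PC as the KO titles do. The mean over peritoneal macrophage markers ran from 11.96 to 12.06 in these 6 arrays. The other 6 arrays hold CD4+ T cells of B10.Q/J mice and were not used. No array used here has both Ifnar1 and Tyk2 intact, and nothing in the labels ties the paired arrays to separate mice, so p-values measure the spread between these arrays. Values are log2 of the deposited intensity, and a difference of 1 is 2-fold.

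IFNα binds a receptor made of IFNAR1 and IFNAR2, whose kinases TYK2 and JAK1 activate transcription factors that include STAT2. Together with IRF9, STAT2 is part of a complex that binds interferon-stimulated response elements (ISREs) in the promoters of antiviral genes such as Ifit1, Mx1 and Rsad2. Resident peritoneal macrophages are long-lived cells that renew themselves locally by division, and they answer type I interferon with a large set of such genes. The question of the KO arrays, as the series title puts it, is how far the interferon-stimulated genes depend on IFNAR1.

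The labelled cell type was checked first. The mean log2 intensity over 21 markers of peritoneal macrophages was 11.54 and 11.94 in the KO IFNα arrays 1 and 2, against 11.86 and 11.75 in KO arrays 1 and 2 titled without IFNα. Gata6, the transcription factor of these macrophages, was at 10.63 and 11.30 in KO IFNα arrays, against 11.62 and 11.47 in KO arrays titled without IFNα. The gate genes Icam2 (11.07 and 11.93, against 11.72 and 11.63) and Adgre1, which encodes F4/80 (12.73 and 13.12, against 13.08 and 12.94), were high in all 4 arrays. Of 13 NK cell markers, all 13 lay below the array median in each of the 4 KO arrays. So did 16 of 19 T cell markers, 12 of 14 mast cell and basophil markers and 7 of 8 eosinophil markers. The counts were 15 of 20 for mesothelial and fibroblast markers, 14 of 20 for neutrophil markers and 14 of 26 for B cell markers. They were 6 of 10 for erythroid and platelet markers, 5 of 11 for plasma cell markers and 4 of 9 for monocyte markers. For small peritoneal macrophages and dendritic cells 10 of 22 markers lay below the median in all 4 KO arrays. A few B cell genes were higher in both arrays numbered 1: Ms4a1 (CD20) was at 7.89 and 5.80 in KO IFNα arrays 1 and 2, against 7.54 and 5.88 in KO arrays 1 and 2 titled without IFNα. Ngp, a neutrophil granule gene, was at 8.22 in array 1 titled without IFNα and between 5.07 and 5.63 in the other KO arrays. Ms4a1 and Ngp were picked after their values were seen.

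**Figure D1:**
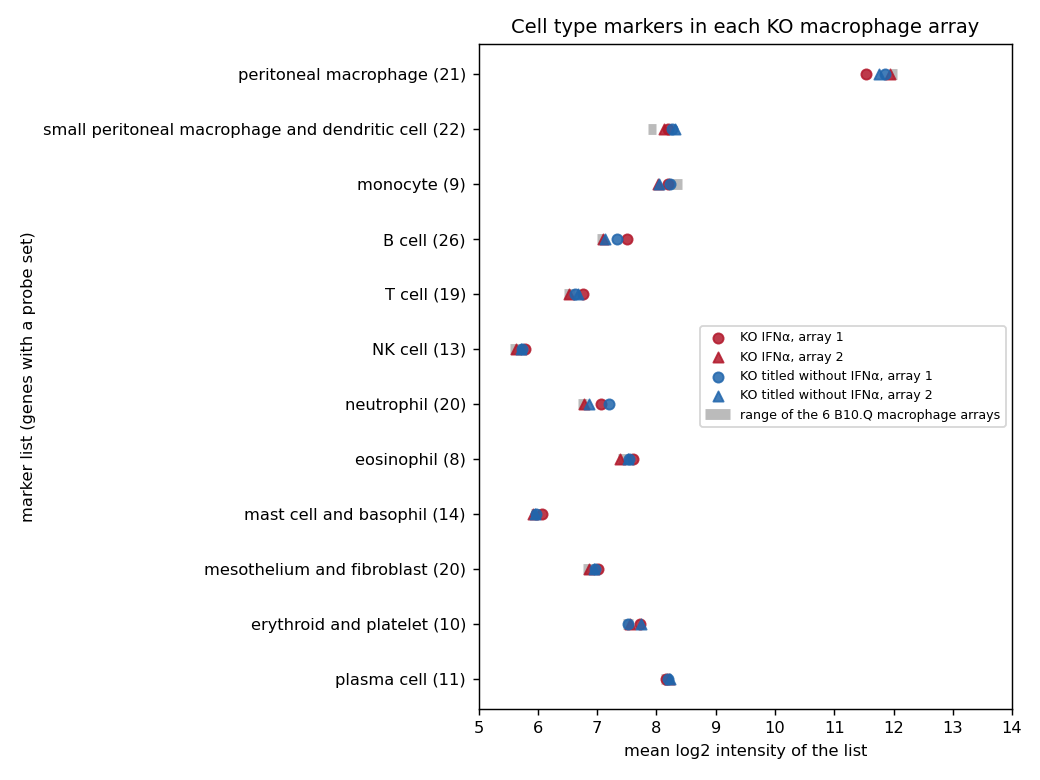
Mean log2 intensity (x axis) of each marker list (y axis, with the number of genes) in the 4 KO macrophage arrays; grey bars span the 6 B10.Q macrophage arrays. Peritoneal macrophage markers lie between 11.54 and 11.94 in KO arrays, and array 1 of the IFNα pair is the lowest of the 4 in them.

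The KO IFNα pair was less alike than the other pair. Its arrays 1 and 2 correlated at 0.950 over the genes tested and differed by over 1 log2 unit at 256 genes, against 0.986 and 19 genes for the 2 KO arrays titled without IFNα. IFNα array 2 was closer to array 1 titled without IFNα (0.987, 24 genes) than to its own partner. IFNα array 1 also had a narrower spread of intensities, with an upper quartile 5.49 times the lower one, against 7.00 in IFNα array 2 and 6.45 and 6.31 in KO arrays titled without IFNα. List medians are therefore also given with arrays of this comparison left out, and over all genes tested the median was 0.04 without IFNα array 1 and -0.06 after leaving out IFNα array 2. The Ifnar1 probe set was at 9.93 and 10.31 in KO IFNα arrays and 10.26 and 10.09 in KO arrays titled without IFNα, within or near the 10.09 to 10.46 of the B10.Q arrays. KO without IFNα minus B10.Q vehicle was -0.18 ± 0.15 (SE, adjusted p = 0.650, limma), so this probe set did not separate the genotypes and gives no check of the deletion. The labels do not say whether its probes lie in the targeted part of the gene.

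Promoter sequences of genes on which the results turn are given with 3 motifs, searched on both strands in the 250 bases before and 50 bases after each RefSeq start site (build GRCm38.p6). They are the ISRE (GAAA, any 2 bases, GAAA), an E2F site (GCGGGAA or GCGCGAA) and a metal response element (TGCACNC or TGCGCNC). An ISRE match is in 3.44% of 32851 promoters, an E2F match in 6% and a metal element match in 25.7%. Matches of different motifs overlap in 5 promoters (ISRE and E2F site) and in 15 (E2F site and metal element). Each stretch runs from 20 bases before its first match and stops at the start site at the latest, is given 5′ to 3′ on the gene's strand, and has its matches in capitals.
Ifit1, chr19:34640765-34640833, plus strand: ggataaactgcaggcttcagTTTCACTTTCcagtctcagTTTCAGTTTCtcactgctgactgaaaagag
Rsad2, chr12:26456543-26456592, minus strand: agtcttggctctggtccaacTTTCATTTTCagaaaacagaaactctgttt
Mcm5, chr8:75109337-75109383, plus strand: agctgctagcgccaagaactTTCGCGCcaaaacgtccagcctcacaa
Uhrf1, chr17:56303269-56303315, plus strand: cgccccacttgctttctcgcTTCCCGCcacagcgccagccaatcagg
Mcm7, chr5:138172022-138172068, minus strand: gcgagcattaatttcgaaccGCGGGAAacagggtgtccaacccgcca
Mt2, chr8:94172375-94172594, plus strand: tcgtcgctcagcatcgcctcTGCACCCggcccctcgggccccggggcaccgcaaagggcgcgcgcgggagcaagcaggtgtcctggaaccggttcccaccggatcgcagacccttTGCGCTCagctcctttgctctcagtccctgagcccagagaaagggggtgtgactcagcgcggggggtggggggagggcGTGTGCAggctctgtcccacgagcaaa
Ifit1 and Rsad2 stand for the antiviral genes, Mcm5, Uhrf1 and Mcm7 for the replication genes, and Mt2 is the gene with the smallest p in the higher direction. Of the promoters of tested antiviral effector genes 13 of 43 (30.2%) hold an ISRE match, and of those of tested replication genes 22 of 49 (44.9%) hold an E2F match, against 4 of 39 (10.3%) for the mitosis genes. A metal element match is in 8 of 25 promoters of the stress list (32%) and in 28 of 49 of the replication genes (57.1%). These matches describe the letters of the windows.

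Across all genes, no gene passed the test. In limma's moderated test on 10531 genes, 0 (0%) had an adjusted p under 0.05 between KO IFNα and KO arrays titled without IFNα. Without adjustment, 460 genes had a p under 0.05: 186 were higher in KO IFNα arrays (1.77%) and 274 lower (2.6%). The 2 KO IFNα arrays lay above both arrays titled without IFNα at 1206 genes (11.5%) and below both at 1081 (10.3%). For 10466 genes the 95% interval of the difference ended below 1, so a 2-fold higher level in KO IFNα arrays lay outside it. In B10.Q macrophages at 2 h the same test called 84 genes higher after IFNα (0.798%), and the fit tested the difference between the KO and the B10.Q responses directly. That difference was below 0 at 43 genes (0.408%) with an adjusted p under 0.05. Of the 84 genes called higher in B10.Q macrophages, 65 had a KO difference below 0 and 19 above, with a median of -0.20. That median was -0.24 without array 1 titled without IFNα and -0.09 without array 2 titled without IFNα. This array 2 lay above its partner at 68 of the 84, beside 5372 of all 10531 genes. Of the 84 genes 16 lay under the median of each of the 4 KO arrays, so they passed the filter through B10.Q arrays. Over all genes tested the median was -0.01. The interval of the KO difference ended below 1 for 80 of the 84.

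**Figure D2:**
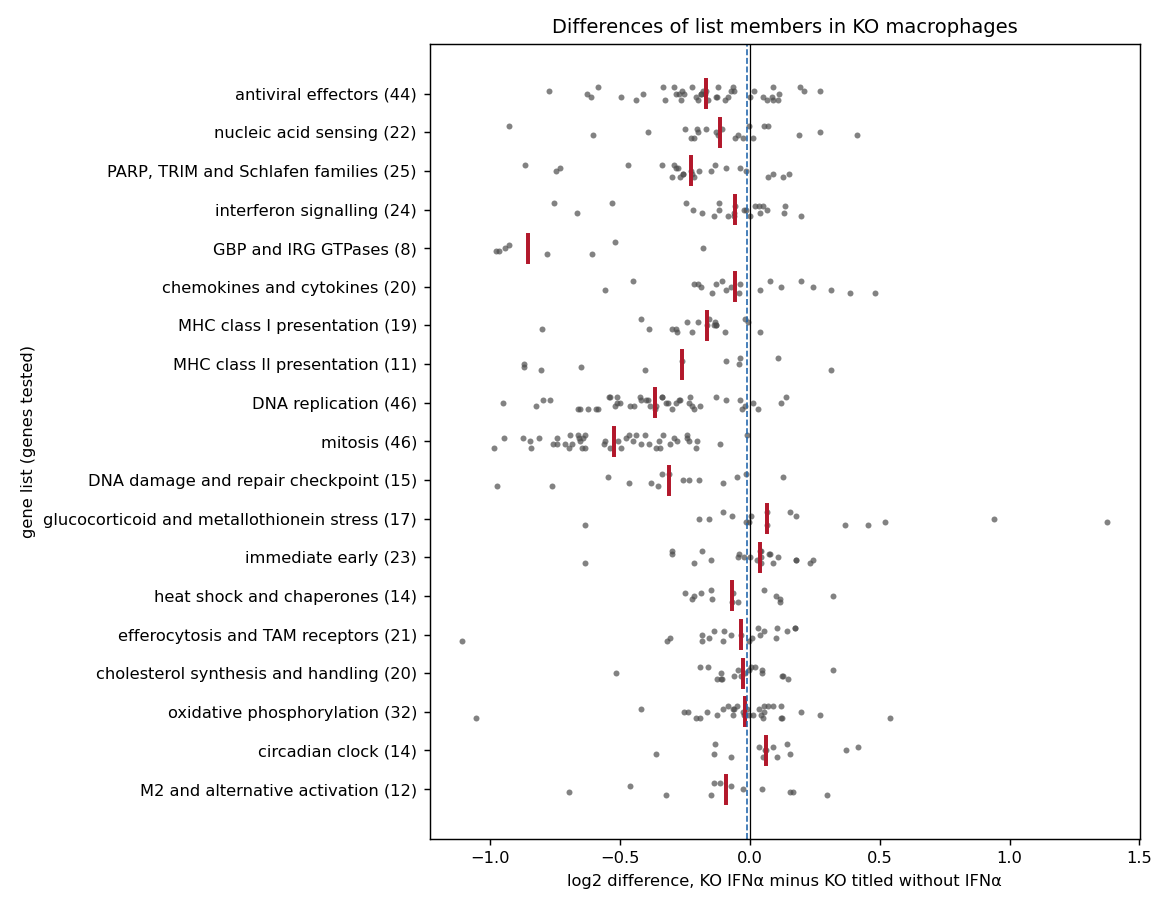
Log2 difference of each tested gene (x axis, KO IFNα minus KO titled without IFNα; points) by gene list (y axis, with genes tested); red bars are list medians and the dashed line the median of all genes, -0.01. Medians of the replication (-0.36) and mitosis (-0.52) lists lie below 0, as does that of the 8 GBP and IRG genes (-0.85), while the antiviral list is centred at -0.17.

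The antiviral effectors had similar levels in the 4 KO arrays, and 0 of 44 were called. Mx1, a GTPase that blocks influenza virus, was at 6.25 and 6.14 in KO IFNα arrays, against 6.36 and 6.43 in KO arrays titled without IFNα. The KO difference was -0.20 ± 0.26 (SE, 2 arrays a group), with an interval of -0.79 to 0.39. Its SE comes from the spread within all 5 macrophage groups of the fit. For Mx1 the KO arrays of each pair were closer to each other than the 2 B10.Q IFNα arrays were. In B10.Q macrophages Mx1 was at 11.87 and 10.84 after IFNα, against 6.15 and 6.12 after vehicle. All 4 KO arrays lay near the B10.Q vehicle arrays, and the KO response minus the B10.Q response was -5.42 ± 0.37 log2 units (SE, limma adjusted p = 0.00027).

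Ifit1, which binds foreign RNA lacking the cellular cap, was at 6.11 and 6.13 in KO IFNα arrays, against 6.39 and 6.43 in KO arrays titled without IFNα. Rsad2, the enzyme viperin, was at 6.04 and 5.78 in KO IFNα arrays, against 6.10 and 6.16. Both promoters hold ISRE matches, in capitals in their sequences, and the upper ends of the intervals were 0.65 for Ifit1 and 0.78 for Rsad2. Usp18, the protease that removes ISG15 and dampens receptor signalling, was at 6.84 and 6.74 in KO IFNα arrays, against 6.87 and 7.04 in KO arrays titled without IFNα. Mx2 was at 5.67 and 5.83, against 5.79 and 5.70, and its difference was 0.00 ± 0.24. Its direction is not fixed, since it was just below 0 after quantile normalization. Oas2, a sensor enzyme that makes the activator of RNase L, was at 7.52 and 7.24 in KO IFNα arrays, against 7.40 and 7.48, with overlapping groups.

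The antiviral genes with the smallest p lay in both directions. Oas1c, of the oligoadenylate synthetase family, was at 7.52 and 7.29 in KO IFNα arrays, against 7.18 and 7.09 in KO arrays titled without IFNα (0.27 ± 0.13, SE). Rtp4, a chaperone that restricts flaviviruses, was at 6.19 and 6.36, against 6.48 and 7.24 (-0.58 ± 0.25, SE). Samhd1, which depletes nucleotides that viruses need, was at 11.66 and 11.88, against 12.08 and 12.45 (-0.49 ± 0.16, SE). Rtp4 and Samhd1 were lower in both IFNα arrays, with array 2 titled without IFNα the highest. Lgals3bp, a secreted glycoprotein, was at 9.87 and 11.28, against 11.40 and 11.30, and its difference of -0.77 was -0.07 with IFNα array 1 left out. Xaf1, an interferon-induced promoter of apoptosis, was at 8.08 and 7.78, against 7.71 and 8.34, with overlapping groups.

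Of 44 antiviral effectors tested, 0 were called, 13 were lower and 2 higher in both KO IFNα arrays than in both others (10.3% and 11.5% of all genes), and 3 had an unadjusted p under 0.05, all lower (2.6% of all genes). The median was -0.17 and ran from -0.18 to -0.16 over the settings that kept all arrays. It was -0.14 without IFNα array 1, -0.13 without IFNα array 2, -0.26 without array 1 titled without IFNα and -0.03 without array 2 titled without IFNα. That last array was above its partner at 39 of the 44 genes and the highest KO array at 25. Over all 10531 genes tested these counts were 5372 and 2024. The interval ended below 1 for 42 of the 44. Of the 44, 11 lay under the median of each of the 4 KO arrays and passed the filter on low values through B10.Q arrays, so the counts describe these genes and do not support a difference. Of 47 listed genes with a probe set, Ifit2, Ifit3b and Ifi44l did not pass the filter.

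**Figure D3:**
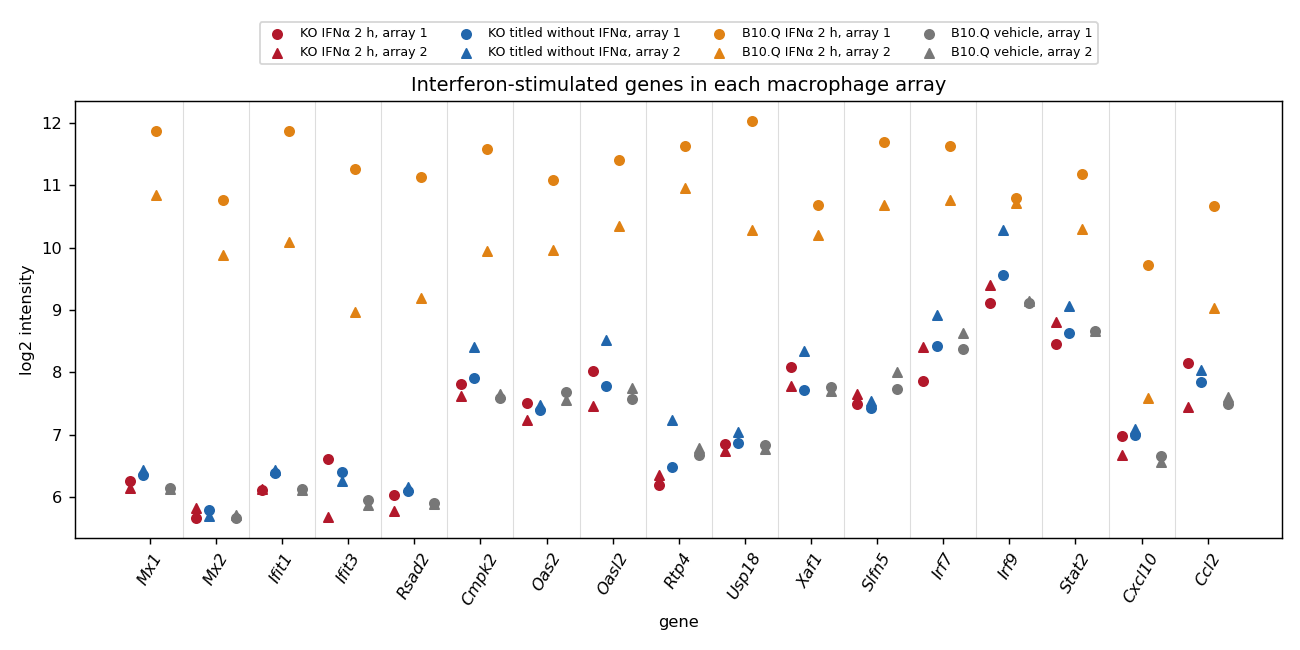
Log2 intensity (y axis) of 17 interferon-stimulated genes (x axis) in each array of KO IFNα, KO titled without IFNα, B10.Q IFNα 2 h and B10.Q vehicle macrophages; circles are array 1 and triangles array 2. For Mx1 the KO arrays lie between 6.14 and 6.43, beside the B10.Q vehicle arrays and below the B10.Q IFNα arrays at 10.84 and 11.87.

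Genes of the sensing, PARP, TRIM and Schlafen families were likewise not called, and several were a little lower in the IFNα arrays. Slfn1, of the Schlafen family of growth regulators and virus restriction factors, was at 8.73 and 8.56 in KO IFNα arrays, against 9.07 and 9.70 in KO arrays titled without IFNα. Slfn9 was at 7.68 and 7.48, against 8.22 and 8.41. Slfn3 was at 8.03 and 8.93, against 9.39 and 9.30, and its difference was -0.42 with IFNα array 1 left out and -1.31 with IFNα array 2 left out. The Schlafen genes are close relatives, so their probes may read each other's transcripts. Of 25 tested members of these families 0 were called, 13 were lower in both IFNα arrays than in both others (10.3% of all genes), and 4 had an unadjusted p under 0.05 (2.6% of all genes, lower). The median was -0.22, or -0.15 without IFNα array 1 and -0.21 without IFNα array 2. It was -0.25 without array 1 titled without IFNα and -0.15 without array 2 titled without IFNα. In the test against the B10.Q response 10 of the 25 were called lower in KO, beside 0.408% of all genes. Of the 25, 3 had passed the filter on low values through B10.Q arrays, so this count is a description. Among 22 tested nucleic acid sensors the median was -0.11, or -0.08 without IFNα array 1 and -0.11 without IFNα array 2. It was -0.10 without array 1 titled without IFNα and -0.06 without array 2 titled without IFNα. Of the 22, 3 were lower in both IFNα arrays, a share near the 10.3% of all genes. The filter was passed through B10.Q arrays by 5 of the 22, Cgas among them. Dtx3l, the ubiquitin ligase partner of PARP9, was at 9.72 and 9.85 in KO IFNα arrays, against 10.14 and 10.63 in KO arrays titled without IFNα (-0.60 ± 0.19, SE). Cgas, the sensor of cytosolic DNA, was at 6.51 and 6.76, against 6.93 and 6.73, and its groups overlapped.

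Among the genes of the pathway itself, receptors and kinases gave small differences. Ifnar2, the remaining receptor chain, was at 12.03 and 12.00 in KO IFNα arrays, against 11.85 and 11.92 in KO arrays titled without IFNα (0.13 ± 0.10, SE). Tyk2 was at 9.49 and 9.85, against 9.88 and 9.95. Jak1 (11.05 and 11.20, against 11.20 and 11.04) and the receptor chain of IFNγ, Ifngr1 (11.21 and 11.34, against 11.27 and 11.15), overlapped between groups. The transcription factors had lower means in IFNα arrays, and none passed the test. Irf9, the DNA-binding partner of STAT2, was at 9.11 and 9.39 in KO IFNα arrays, against 9.56 and 10.27 (-0.67 ± 0.20, SE, limma adjusted p = 0.911). Irf7, which amplifies interferon production, was at 7.87 and 8.40, against 8.42 and 8.92. Stat2 was at 8.45 and 8.80, against 8.63 and 9.06, and its groups overlapped. Irf1, a target of IFNγ as well as of IFNα, was at 9.18 and 9.43 in KO IFNα arrays, against 9.50 and 10.61 in KO arrays titled without IFNα. A second Irf1 probe set gave -0.17, against -0.75 for the one used. Of 24 tested genes of this list 0 were called and 4 were lower in both IFNα arrays, beside 10.3% of all genes. The median was -0.06 and its sign was not fixed, at 0.05 without IFNα array 1 and -0.12 without IFNα array 2. It was -0.07 without array 1 titled without IFNα and 0.01 without array 2 titled without IFNα.

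The GBP and IRG GTPases, which attack the vacuoles of intracellular microbes and respond to both IFNγ and type I interferon, had the lowest median of the 19 lists, and 1 array stood out in them. Gbp7 was at 9.27 and 9.70 in KO IFNα arrays, against 10.09 and 10.76 in KO arrays titled without IFNα. Gm12250 was at 7.67 and 7.58, against 7.84 and 9.36. Gbp5 was at 7.52 and 7.81, against 8.03 and 9.23. In each, array 2 titled without IFNα was the highest, and this held for all 8 tested genes of the list, beside 2024 of all 10531 genes. Iigp1, for example, was at 5.54 and 5.66 in KO IFNα arrays, against 5.57 and 7.20 in KO arrays 1 and 2 titled without IFNα, and reached 9.42 in B10.Q arrays. Of the 8 genes 0 were called, 5 were lower in both IFNα arrays (10.3% of all genes) and 3 had an unadjusted p under 0.05 (2.6% of all genes, lower), a count of 0 without array 2 titled without IFNα. The median was -0.85 with all arrays, -0.72 without IFNα array 1 and -0.86 without IFNα array 2. It was -1.41 without array 1 titled without IFNα and -0.25 without array 2 titled without IFNα. The members share sequence, and 2 of the 8 passed the filter through B10.Q arrays.

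MHC class I genes, which present peptides from inside the cell, were highest in the same array. Tap1, a subunit of the peptide transporter, was at 8.66 and 8.94 in KO IFNα arrays, against 9.02 and 10.18 in KO arrays titled without IFNα. Psmb9, an immunoproteasome subunit, was at 9.19 and 9.27, against 9.33 and 9.90. Nlrc5, the activator of class I genes, was at 10.51 and 10.47, against 10.62 and 10.93 (-0.28 ± 0.15, SE). Its 18 other probe sets gave differences from -1.58 to -0.27, with a median of -0.93. Array 2 titled without IFNα was the highest KO array for 15 of 19 tested genes, beside 2024 of all 10531 genes, and 0 genes were called. The median was -0.16, or -0.06 without that array and -0.34 without its partner. It was -0.14 without IFNα array 1 and -0.29 after leaving out IFNα array 2.

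MHC class II genes were lower in KO IFNα arrays without passing the test. H2-Eb1 was at 9.53 and 9.70 in KO IFNα arrays, against 10.45 and 10.52 in KO arrays titled without IFNα (-0.87 ± 0.17, SE, limma adjusted p = 0.293). H2-Aa was at 10.53 and 10.93, against 11.35 and 11.71. H2-Ab1 was at 10.86 and 11.04, against 11.43 and 11.77. The groups do not overlap in these 3 chains of the class II molecule. Ciita, the master activator of the class II genes, was at 7.38 and 7.13 in KO IFNα arrays, against 7.62 and 8.63 in KO arrays titled without IFNα. Ciita passed the filter on low values only through the arrays titled without IFNα, so its values do not support a difference. Cd74, the invariant chain, was at 11.80 and 11.59, against 12.00 and 12.20. Of 11 tested genes 7, Ciita among them, were lower in both IFNα arrays (10.3% of all genes). Ciita was also 1 of 4 genes with an unadjusted p under 0.05 (2.6% of all genes, lower), so both counts are a description. Without array 2 titled without IFNα the median was -0.10 and 1 gene had such a p. Without array 1 titled without IFNα the median was -0.32. Without IFNα array 1 the median was -0.27, and without IFNα array 2 it was -0.30. With all arrays it was -0.26, and -0.09 over the 13 genes with a probe set and no filter. The costimulator Cd86 lay the other way, at 10.07 and 9.76, against 9.79 and 9.41, with overlapping groups. B cells also carry class II molecules, and their marker list averaged 7.50 and 7.09 in KO IFNα arrays, against 7.34 and 7.13 in KO arrays titled without IFNα. For 22 markers of small peritoneal macrophages and dendritic cells, H2-Ab1 and Cd74 among them, the averages were 8.19 and 8.13, against 8.26 and 8.31. The part of these cells in the class II values was not tested, and in bulk RNA fewer cells of a type and less RNA per cell cannot be told apart. Both KO groups lay above all B10.Q arrays at H2-Ab1, and strain and genotype cannot be told apart there.

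**Figure D4:**
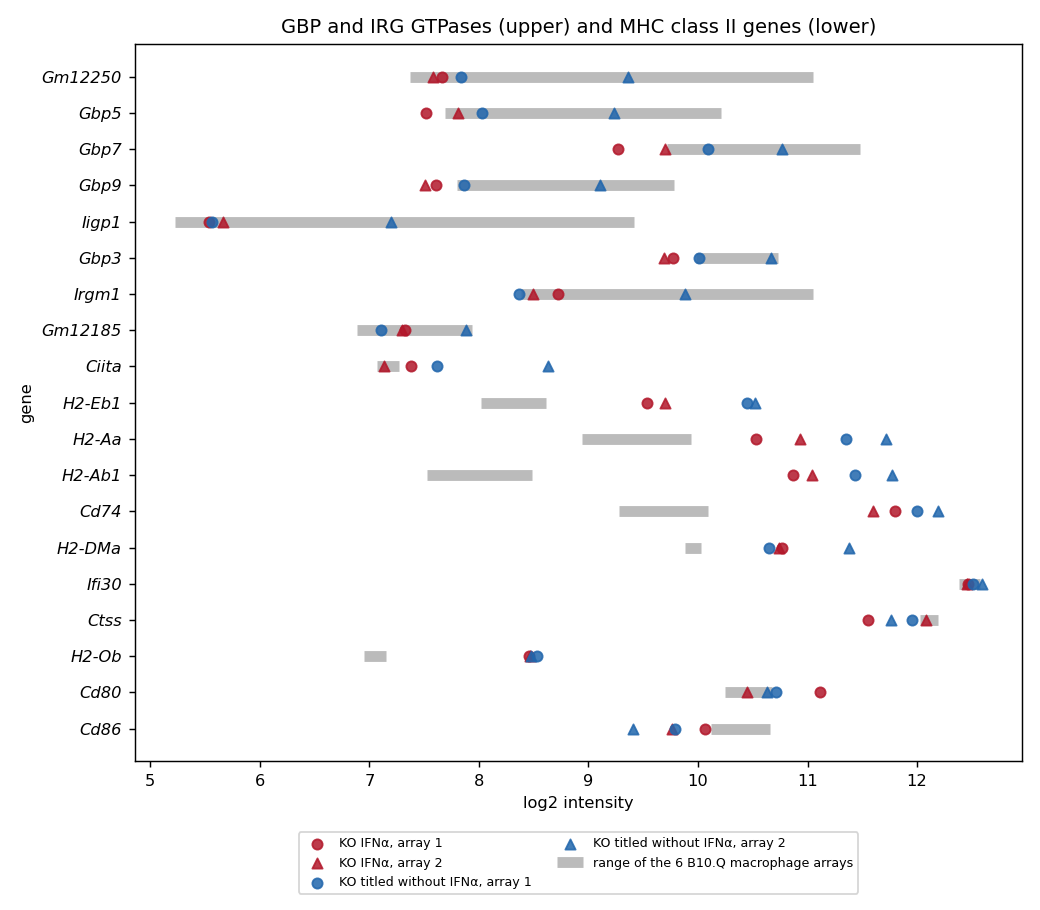
Log2 intensity (x axis) of the 8 tested GBP and IRG genes and the 11 tested MHC class II genes (y axis) in the 4 KO arrays; grey bars span the 6 B10.Q macrophage arrays. Array 2 titled without IFNα stands alone at the high end for Iigp1 (7.20, against 5.57 in its partner), whereas both arrays titled without IFNα lie above both IFNα arrays for H2-Eb1.

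Chemokines and cytokines gave no call. Ccl3, a chemokine that draws leukocytes, was at 9.40 and 8.93 in KO IFNα arrays, against 9.59 and 9.85 in KO arrays titled without IFNα (-0.56 ± 0.17, SE). Cxcl10, an interferon-induced chemokine for T cells, was at 6.98 and 6.68, against 6.99 and 7.09. Ccl2, the main chemokine for monocytes, was at 8.14 and 7.45, against 7.85 and 8.04. Its KO groups overlapped, whereas in B10.Q macrophages it was at 10.67 and 9.03 after IFNα, against 7.50 and 7.60 after vehicle. Ccl24, an eosinophil chemokine made by these macrophages, was at 11.34 and 11.14 in KO IFNα arrays, against 10.68 and 10.84. Of 20 tested genes 3 were lower and 3 higher in both IFNα arrays, shares near the 10.3% and 11.5% of all genes. The median was -0.06 and its sign was not fixed, at -0.12 without IFNα array 1 and 0.03 without IFNα array 2. It was -0.20 without array 1 titled without IFNα and 0.07 without array 2 titled without IFNα.

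DNA replication, mitosis and repair checkpoint genes made up most of the genes with the smallest p. Chek1, the checkpoint kinase of S phase, was at 7.43 and 7.24 in KO IFNα arrays, against 8.31 and 8.30 in KO arrays titled without IFNα. The difference was -0.97 ± 0.12 (SE, 2 arrays a group), a fold of 0.510, with a limma adjusted p of 0.0895. Both IFNα arrays were below both others by more than the arrays of either pair differed. The difference was -1.07 without IFNα array 1 and -0.87 without IFNα array 2, each with 1 IFNα array remaining. With all arrays kept, Chek1 passed the test after quantile normalization (-1.04, limma adjusted p = 0.0277). In B10.Q macrophages it was at 7.72 and 7.81 after IFNα at 2 h, against 7.59 and 7.44 after vehicle. The KO response minus the B10.Q response was -1.22 ± 0.16 (SE, limma adjusted p = 0.011).

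Subunits of the replicative helicase gave the same order. Mcm5 was at 9.08 and 9.07 in KO IFNα arrays, against 9.79 and 9.95 in KO arrays titled without IFNα (-0.80 ± 0.12, SE, limma adjusted p = 0.174). Mcm7 was at 8.65 and 8.70, against 9.29 and 9.39. Mcm2 was at 8.61 and 8.62, against 9.15 and 9.39. The 2 IFNα arrays were close to each other in all 3 genes and lay below both others. Pole, the catalytic subunit of a replicative DNA polymerase, was at 7.67 and 7.43 in KO IFNα arrays, against 8.25 and 8.39. Rrm2, the regulated subunit of ribonucleotide reductase, was at 8.40 and 8.17, against 9.17 and 9.29. Uhrf1, which passes on DNA methylation at the replication fork, was at 7.51 and 7.50, against 8.27 and 8.38. Of 46 tested replication genes 27 had an unadjusted p under 0.05 (2.6% of all genes, lower) and 33 were lower in both IFNα arrays (10.3% of all genes), 0 were called, and 42 differences were below 0, with a median of -0.36. The median was -0.46 without IFNα array 1 and -0.26 after leaving out IFNα array 2. It was -0.40 without array 1 titled without IFNα and -0.32 without array 2 titled without IFNα.

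Mitosis genes had a lower median still, and here the IFNα arrays differed between themselves. Top2a, the topoisomerase that untangles chromosomes, was at 8.21 and 8.23 in KO IFNα arrays, against 9.08 and 9.34 in KO arrays titled without IFNα. Ncapg of the condensin complex was at 6.81 and 6.77, against 7.68 and 7.65. Nuf2 of the kinetochore was at 6.66 and 6.59, against 7.63 and 7.51. These 3 were low in both IFNα arrays. Ncapg passed the filter on low values only through the arrays titled without IFNα, and Nuf2 through 1 of them and 1 B10.Q vehicle array. Of the 46 tested mitosis genes, 4 would not have passed without the arrays titled without IFNα. The next genes, picked after their values were seen, were low in array 2 alone. Ccnb2, a mitotic cyclin, was at 11.03 and 9.79 in KO IFNα arrays 1 and 2, against 11.03 and 11.06 in KO arrays titled without IFNα. Ccna2, the cyclin of S and G2 phases, was at 10.43 and 9.12, against 10.43 and 10.60. Kif11, the spindle motor, was at 9.21 and 7.92, against 9.40 and 9.42. IFNα array 1 was above array 2 for 42 of 46 tested mitosis genes, and array 2 was the lowest KO array for 42. Over all 10531 genes tested these counts were 4151 and 2100. Of the 46, 30 had an unadjusted p under 0.05 (2.6% of all genes, lower), 35 were lower in both IFNα arrays (10.3% of all genes), 0 were called and all 46 differences were below 0, with a median of -0.52. That median was -0.76 without IFNα array 1 and -0.27 after leaving out IFNα array 2. It was -0.57 without array 1 titled without IFNα and -0.43 without array 2 titled without IFNα.

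Taking replication, mitosis and repair checkpoint genes as 1 list of 107 tested genes, 63 had an unadjusted p under 0.05 in the lower direction and 0 in the higher, beside 2.6% and 1.77% of all genes. The 2 IFNα arrays were below both others at 77 of the 107, beside 10.3% of all genes. Array 2 titled without IFNα was the highest KO array at 71 of the 107, beside 2024 of all 10531 genes. The earlier results of these data pointed to these genes, so the counts are a description. Of the 107 genes 9 had passed the filter through the arrays titled without IFNα. Without the filter, 83 of 141 genes had an unadjusted p under 0.05 in the lower direction, beside 2.16% of 19752 genes, and the IFNα arrays were below both others at 100 of 141, beside 10.4%. The median was -0.39 over those 141 genes, and over the settings that kept all arrays it lay between -0.47 and -0.39.

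KO arrays of both groups lay outside the B10.Q range at some of these genes. At 77 of the 107 genes both arrays titled without IFNα lay above all 6 B10.Q macrophage arrays, whereas both IFNα arrays lay above them at 4 and below them at 19. Over all 10531 genes, both arrays titled without IFNα were above all B10.Q arrays at 1339. Both IFNα arrays were above all B10.Q arrays at 946 of the 10531 and below them at 1030. Mcm5 ran from 9.09 to 9.36 over the B10.Q arrays and Chek1 from 7.44 to 7.81, so both IFNα arrays lay just under that range in these genes and both others lay above it. Strain, age and genotype differ between KO and B10.Q mice and cannot be told apart here. In the direct test of the KO against the B10.Q response, 1 of the 107 genes, Chek1, was called. For Mcm5 that difference was -0.93 ± 0.17 (SE, limma adjusted p = 0.0666). The macrophage marker list was at 11.54 and 11.94 in KO IFNα arrays and 11.86 and 11.75 in KO arrays titled without IFNα, with overlapping groups. The list of small peritoneal macrophages and dendritic cells was at 8.19 and 8.13, against 8.26 and 8.31, so it was lower in both IFNα arrays. The part of the cell mix in these genes was not tested. Ccnd1, a G1 cyclin in the list of small peritoneal macrophages and dendritic cells, was at 10.87 and 10.98 in KO IFNα arrays, against 11.37 and 11.46.

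**Figure D5:**
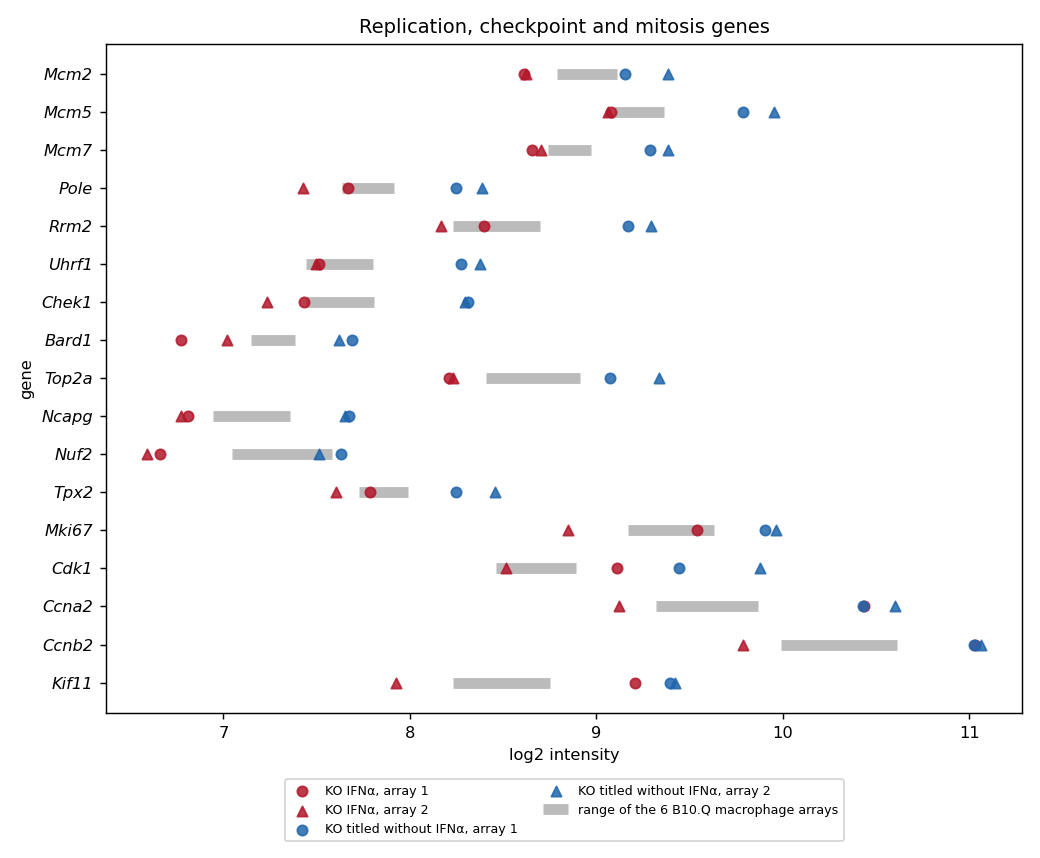
Log2 intensity (x axis) of 17 replication, checkpoint and mitosis genes (y axis) in the 4 KO arrays; grey bars span the 6 B10.Q macrophage arrays. Both IFNα arrays lie left of both arrays titled without IFNα for the upper 14 genes, while for Ccna2, Ccnb2 and Kif11 array 1 of the IFNα pair (10.43, 11.03 and 9.21) lies with or near the arrays titled without IFNα and array 2 (9.12, 9.79 and 7.92) lies apart.

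Outside these lists, Axl had the smallest p in the lower direction. Axl, a receptor kinase for the clearance of dead cells that type I interferon induces in macrophages, was at 8.25 and 8.75 in KO IFNα arrays, against 9.62 and 9.59 in KO arrays titled without IFNα. The difference was -1.11 ± 0.17 (SE), a fold of 0.464, with a limma adjusted p of 0.174. B10.Q arrays spanned 8.64 to 9.43, and the difference from the B10.Q response was -1.51 ± 0.24 (SE, limma adjusted p = 0.03). Axl was called with either IFNα array left out, at -0.86 without array 1 and -1.36 without array 2. The list of 21 tested efferocytosis genes that holds Axl had a median of -0.03, and 2 of the 21, Axl among them, lay lower in both IFNα arrays, beside 10.3% of all genes. The median was 0.14 without IFNα array 1 and -0.16 after leaving out IFNα array 2. Bard1, the partner of BRCA1, was at 6.77 and 7.02, against 7.69 and 7.62, but 2 other Bard1 probe sets gave -0.11 and -0.30. Brip1, a helicase that binds BRCA1, and Wdhd1, a replication fork protein, completed the 15 lower genes with the smallest p, at -0.70 and -0.64. Bard1 and Brip1 would not have passed the filter on low values without the arrays titled without IFNα.

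In the higher direction the metallothionein gene Mt2 came first, while Mt1 was not among the 15 genes with the smallest p. Mt2, a metal-binding protein induced by zinc, glucocorticoids and stress, was at 9.44 and 9.57 in KO IFNα arrays, against 7.73 and 8.54 in KO arrays titled without IFNα. The difference was 1.38 ± 0.23 (SE), a fold of 2.60, with a limma adjusted p of 0.174. Mt1, its neighbour on chromosome 8, was at 11.04 and 11.27, against 10.69 and 10.71 (0.46 ± 0.14, SE). The arrays titled without IFNα were outside the B10.Q range, which was 9.12 to 9.91 for Mt2 and 10.97 to 11.57 for Mt1. Mt2 was called without IFNα array 1 (1.44, limma adjusted p = 0.0463) and without IFNα array 2 (1.31, limma adjusted p = 0.0108). The Mt2 promoter sequence holds 3 metal element matches before its start site.

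Other stress genes did not follow the metallothioneins. Fkbp5, a glucocorticoid-induced chaperone, was at 8.29 and 10.51 in KO IFNα arrays, against 9.18 and 7.74 in KO arrays titled without IFNα. Zbtb16, also induced by glucocorticoids, was at 10.27 and 11.89, against 10.96 and 10.15. Dusp1, a phosphatase that limits MAP kinases, was at 10.88 and 12.20, against 12.14 and 12.21. In all 3 the IFNα arrays differed more from each other than the group means did. Of 17 tested genes of this list Mt1 and Mt2 alone had an unadjusted p under 0.05, and the median was 0.07, or 0.19 without IFNα array 1 and -0.17 with IFNα array 2 left out. Zbtb16 was picked after its values were seen.

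The other genes with the smallest p in the higher direction had varied roles. H60b, a ligand of the NKG2D receptor of NK cells, was at 8.24 and 7.56 in KO IFNα arrays, against 6.88 and 6.79 in KO arrays titled without IFNα. Hp, haptoglobin, was at 10.17 and 9.90, against 9.49 and 9.34. Sult1a1, a sulfotransferase, was at 10.58 and 11.07, against 10.23 and 9.75. In all 3 the arrays titled without IFNα lay below every B10.Q array, and none passed the test. Nupr1, a small stress-induced nuclear protein, was at 11.63 and 11.43, against 10.96 and 11.02. Rassf2, a regulator of Ras signalling, was at 10.65 and 10.74, against 10.18 and 10.14. Ppl, Cldn10, Abca6, Tcim, Fkbp7, Prtn3, Slc30a4, Ccnq and Ogfod3 completed the 15, with differences between 0.44 and 0.78 and adjusted p from 0.551 to 0.911 in limma's test.

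The lists of general cell state had medians near 0 with all arrays, and several changed sign with which IFNα array was left out. Immediate early genes (23 tested) had a median of 0.04, heat shock and chaperone genes (14) -0.07, cholesterol genes (20) -0.03, oxidative phosphorylation genes (32) -0.02, circadian clock genes (14) 0.06 and alternative activation genes (12) -0.09. Without IFNα array 1 the medians of heat shock, oxidative phosphorylation and alternative activation genes were 0.22, 0.09 and 0.09, and with IFNα array 2 left out they were -0.34, -0.22 and -0.29. Those of immediate early, cholesterol and clock genes were 0.03, 0.09 and 0.18 without IFNα array 1, and -0.01, -0.06 and -0.08 with IFNα array 2 left out. The oxidative phosphorylation median was above 0 after quantile normalization. In these lists 0 genes were called and at most 3 a list had an unadjusted p under 0.05. Arg1, the arginase of alternatively activated macrophages, was at 9.48 and 9.39 in KO IFNα arrays, against 9.73 and 9.79 in KO arrays titled without IFNα. In B10.Q macrophages Arg1 was at 10.85 and 11.02 after IFNα, against 10.02 and 10.26 after vehicle, and the difference between the responses was -1.12 ± 0.18 (SE, limma adjusted p = 0.03). Mrc1, the mannose receptor, was at 7.97 and 9.04, against 9.30 and 9.10, and array 1 of the IFNα pair made most of its difference of -0.70. Atp5d, a subunit of the ATP synthase, was at 10.87 and 12.91, against 13.02 and 12.87, so it too was low in that array alone.

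Calls appeared once either IFNα array was left out, with the remaining array assumed to vary like the other groups. Without IFNα array 1, 30 of 10437 genes were called lower (0.287%) and 7 higher (0.0671%). Of the 30 lower genes 18 were in the replication, mitosis or repair checkpoint lists, among them Kif11, Ccna2, Ccnb2, Bub1 and Mki67 beside Chek1. Without IFNα array 2, 909 of 10501 genes were called lower (8.66%) and 282 higher (2.69%). Chek1, Mcm5, Pole, Rrm2, Dtl, Cdca7 and Axl (lower) and Mt2 (higher) were in both sets. Both fits use the same arrays titled without IFNα and the same B10.Q arrays, so the overlap is not independent support. Dtl, which marks replication proteins for destruction, was at 7.83 and 7.51 in KO IFNα arrays, against 8.27 and 8.31 in KO arrays titled without IFNα. Cdca7, a chromatin protein of dividing cells, was at 8.42 and 7.68, against 8.78 and 9.20. Without array 1 titled without IFNα, or without array 2 titled without IFNα, 0 genes were called. Antiviral effectors called lower were 0 of 44 without IFNα array 1 and 2 of 44 without IFNα array 2, and none was called higher in either fit.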

How the data were processed

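RNA of sorted cells, amplified with the Ambion WT Expression Kit, was hybridised to Affymetrix Mouse Gene 1.0 ST arrays. Probe set intensities were computed with RMA in Affymetrix Power Tools, per the submitters' processing notes. The versions, and whether all arrays were normalized together, are not given in the sources used here. The deposited values are linear intensities, and log2 of them was analysed. Of 24922 probe sets, 21425 have 1 gene symbol in the platform annotation, 1399 several and 2098 none. Each of 19752 genes was represented by its probe set of highest average level in the 16 arrays. Testing required a value above the array's own median in 2 or more of the fitted arrays. limma 3.58.1 (R 4.3.3; lmFit and eBayes) fitted the means of 5 macrophage groups (10 arrays), with two-sided tests and Benjamini-Hochberg adjustment over 10531 genes at 0.05. The number of arrays, 2 a group, limits the precision. Each SE, interval and p-value uses the spread within all 5 groups, so at genes that varied among B10.Q arrays it is not the spread of the KO arrays alone. The script was tested on simulated data. Named genes are the 15 with the smallest p and no overlap in each direction, up to 4 of each list by p, and a set of interferon genes and markers. Other genes named, such as Ms4a1, Ngp, Jak1, Ifngr1, Iigp1, Cd74, Cd86, Ccnb2, Ccna2, Kif11, Bub1, Mki67, Dtl, Cdca7 and Zbtb16, were chosen after their values were seen. The members and lists were chosen with earlier results of these data known. Alternatives were other filters, normalizations, variance models, arrays in the fit, the replicate block and leaving out each KO array. Same-numbered KO arrays did not deviate together, with a correlation of -0.292 between their deviations.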

Additional observations from a re-analysis of the deposited data

Results flagged for a closer look

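For 24 named genes the KO difference (IFNα minus titled without IFNα) differed from the B10.Q response (IFNα at 2 h minus vehicle) by the test of that difference in limma, with adjusted p under 0.05. In all 24 the KO difference was the lower one, and the fit of 10531 genes called 43 in that direction. The B10.Q pair itself carries a Tyk2 mutation, and its vehicle arrays join 2 h and 5 h. Differences are KO minus B10.Q on the log2 scale.

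Among antiviral effectors the difference was -5.42 for Mx1, -5.14 for Rtp4, -5.14 for Ifit1, -4.63 for Mx2, -4.50 for Usp18, -4.48 for Rsad2, -3.62 for Oasl2, -3.59 for Cmpk2, -2.96 for Oas2 and -2.80 for Xaf1. Among the Schlafen genes it was -3.23 for Slfn5, -3.10 for Slfn1, -3.01 for Slfn9, -2.59 for Slfn3 and -2.06 for Slfn10-ps. Among signalling and sensing genes it was -3.23 for Irf7, -2.29 for Stat2, -2.28 for Irf9, -1.98 for Dtx3l and -1.53 for Cgas, and for the GTPase Gm12250 it was -4.08. For these 21 genes the B10.Q response was above 1 log2 unit and the KO difference was between -0.98 and 0.09. Several of the 21, such as Mx1, Ifit1 and Cgas, lay under the median of each KO array and passed the filter through B10.Q arrays.

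In Chek1, Axl and Arg1 both sides contributed. Chek1 differed by -1.22, from a KO difference of -0.97 and a B10.Q response of 0.25. Axl differed by -1.51, from -1.11 in KO and 0.40 in B10.Q. Arg1 differed by -1.12, from -0.32 in KO and 0.79 in B10.Q.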

How the results depend on the processing

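The count of genes called between the KO groups was 0 and stayed 0 with no filter, the stricter filter, subtraction of array medians, trend and robust variances, every probe set, a fit of the 4 KO arrays only, the replicate block and the crossed replicate block. It was 1 after quantile normalization (Chek1), 1 with the replicate block in the KO arrays only (Mt2), and 11 in a fit of all 16 arrays (Mt2 higher; Chek1, Mcm5, Axl, Top2a, Bard1, Mcm7, Rrm2, Ncapg, Nuf2 and H2-Eb1 lower). Leaving out 1 KO array gave 0 to 1191, with 37 without IFNα array 1 and 1191 after leaving out IFNα array 2. The cause was not tested.

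The count of genes whose KO difference differed from the B10.Q response was 43, and 41 to 57 under the alternatives that kept the 10 arrays. It was 41 with the replicate block and 57 with the crossed block. The crossed block was added after seeing the data, because the deviations of same-numbered KO arrays from their group means correlated at -0.292. It was 72 in a fit of all 16 arrays. Leaving out 1 KO array gave 8 to 491, with 94 without IFNα array 1, 491 without IFNα array 2, 30 without array 1 titled without IFNα and 8 without array 2 titled without IFNα. The replicate numbers pair nothing that the labels state.

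Of 1484 values of named genes under alternatives that kept all KO arrays, 13 passed the threshold that the reported value had not, and no called value changed sign. Of 557 values with 1 KO array left out, 56 passed it. Of these 2041 values, 43 differed in sign from the reported one while neither was called. The design has 2 arrays a group, and many antiviral probe sets lay near or below the array median in KO arrays. The IFNα arrays differed more than the other KO pair.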

Other observations

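Genes outside the lists marked the difference within the IFNα pair, chosen after their values were seen. Eif5a, a translation factor, was at 9.56 and 11.92 in KO IFNα arrays 1 and 2, against 11.77 and 11.67 in KO arrays titled without IFNα. Aldh2, a mitochondrial aldehyde dehydrogenase, was at 10.38 and 12.14, against 11.87 and 11.57, and C1qa, a complement component made by macrophages, at 11.38 and 13.03, against 12.45 and 12.59. In these genes array 1 of the IFNα pair was the lowest of the 4. The C-type lectin Cd209d was at 8.89 and 7.00 in KO IFNα arrays 1 and 2, against 7.68 and 7.94, and array 1 was the highest there. Map3k6, a stress-activated kinase, was at 8.07 and 9.72, against 8.40 and 7.94, and array 2 of the IFNα pair stood above both the others and its partner.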
